A study of Callithrix jacchus with 54 samples.

Results

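The subunits of the oxidative phosphorylation machinery were followed in the common marmoset, Callithrix jacchus, while embryonic stem cells (cjESCs) were turned into cells resembling primordial germ cells (PGCLCs). Genes were taken from the expression table by symbol, with symbols that begin with NDUFA, NDUFB, NDUFC, NDUFS or NDUFV and a number, the SDH genes, and symbols that begin with UQCR, COX4 to COX8 or ATP5. The rule found 59 of the 14812 genes in the table. Of these, 33 belonged to complex I, 4 to complex II, 2 to complex III, 6 to complex IV and 14 to complex V. NDUFA4 and NDUFA4L2 were placed with complex IV, because the NDUFA4 protein is known as a subunit of cytochrome c oxidase despite its name.

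Complexes I to IV form the respiratory chain of the inner mitochondrial membrane. Complex I takes electrons from NADH and complex II (succinate dehydrogenase, also an enzyme of the tricarboxylic acid cycle) takes them from succinate; complex III passes them to cytochrome c, and complex IV hands them to oxygen. Complex V, the ATP synthase, uses the proton gradient so built to make ATP. Complexes I, III, IV and V combine nuclear-encoded subunits with subunits encoded in mitochondrial DNA, whereas complex II is encoded wholly in the nucleus, and the subunits described here are the nuclear ones. Pluripotent stem cells are known to draw heavily on glycolysis, and germ cells of the mouse are known to raise their oxidative metabolism as they develop.

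Poly(A) RNA was sequenced in 54 libraries from 27 conditions, with 2 biological replicates each, on cells of the ESC line CMES40 collected by flow cytometry, which carried the reporters BLIMP1-tdTomato and NANOS3-eGFP. A transgenic line (TG+; rtTA, tetO-BLIMP1, SOX17-GR and DD-TFAP2C) was kept in the medium DK20FA and a line labelled wild type for these transgenes (TG-) in the medium PESFA, so that line and medium cannot be told apart. TG+ cells were sampled as cjESCs and at 12, 24, 48 and 96 h in BLSE (BMP4, LIF, SCF, EGF and a ROCK inhibitor), in SOX17 + BLSE, in which dexamethasone released the SOX17-GR fusion protein, and in SOX17 + LSE, which left out BMP4. TG- cells were sampled as cjESCs, after 24 h in IM12 and activin A (pre-induced cells, Pre), at 12, 24, 48 and 96 h in BLSE with the WNT inhibitor IWR1, with or without BMS493, an inverse agonist of retinoic acid receptors, at day 6 with IWR1, and at days 20, 40 and 70 in xenogeneic reconstituted ovaries (xrOvaries), in which day-6 PGCLCs were aggregated with mouse fetal gonadal somatic cells. Both lines were grown from picked colonies. The cjESCs and Pre cells were sorted as TRA-1-60(+) from mouse feeders, the 12 to 48 h samples and BLSE at 96 h held all cells, and the other 96 h samples, day 6 and the xrOvary samples were sorted as tdTomato(+). Sort and time cannot be told apart. In these bulk samples, fewer cells of a type and less RNA per cell cannot be told apart either.

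Values are in TPM, RSEM's per-length share of a library's RNA, and the table kept only genes shared with human, so that the libraries summed to between 790300 and 839203 TPM. Sequencing depth is unknown. No pair of libraries was identical, and replicates correlated across genes at r between 0.977 and 0.994. PGCLC markers (SOX17, PRDM1, TFAP2C, NANOS3, KIT and PDPN, 6 of 6 in the table) summed to 3162 to 3377 TPM in sorted SOX17 + BLSE cells at 96 h, 2398 to 2700 in sorted IWR1 cells at 96 h, 256.5 to 289.6 in BLSE at 96 h and 673.6 to 839.3 in DK20FA cjESCs. Of 4 late germ cell markers, DDX4 and DAZL were at 0 at day 6, and the 4 summed to 126.1 to 130.8 TPM at xrOvary day 70. In BLSE at 96 h, POU5F1 had fallen to 103 to 125 TPM, from 2868 to 3082 in DK20FA cjESCs.

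Together the 59 subunits made up 1.74 to 2.76% of the RNA in the table. Their summed level was lowest in PESFA cjESCs, at 14320 ± 770 TPM (SD, n = 2), and highest in the xrOvary, at 20326 ± 586 TPM at day 20, 21396 ± 288 at day 40 and 22083 ± 667 at day 70. The 4 sorted populations at 96 h followed, with 19656 ± 630 TPM in SOX17 + BLSE, 19086 ± 100 in SOX17 + LSE, 18790 ± 349 in IWR1 and 18567 ± 187 in IWR1 + BMS. The libraries at days 20 (19912 and 20740 TPM), 40 (21192 and 21600 TPM) and 70 (21611 and 22555 TPM) did not overlap, although days 40 and 70 nearly touched. Day 20 overlapped with SOX17 + BLSE at 96 h, SOX17 + LSE with IWR1, and IWR1 with IWR1 + BMS. A high sum was not particular to sorted cells. Unsorted IWR1 cells stood at 18209 ± 923 TPM at 12 h, 18017 ± 1157 at 24 h and 17786 ± 2291 at 48 h. Each of these overlapped with sorted IWR1 cells at 96 h, and Pre cells stood at 15546 ± 663 TPM. Sorted day-6 cells stood lower than the sorted 96 h cells, at 17260 ± 500 TPM. The 2 libraries of IWR1 at 48 h differed most from each other, with 19406 and 16166 TPM. The highest condition exceeded the lowest 1.54-fold over all subunits, 1.60-fold for complex I, 1.98-fold for complex II, 1.72-fold for complex III, 1.90-fold for complex IV and 1.41-fold for complex V.

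**Figure D1:**
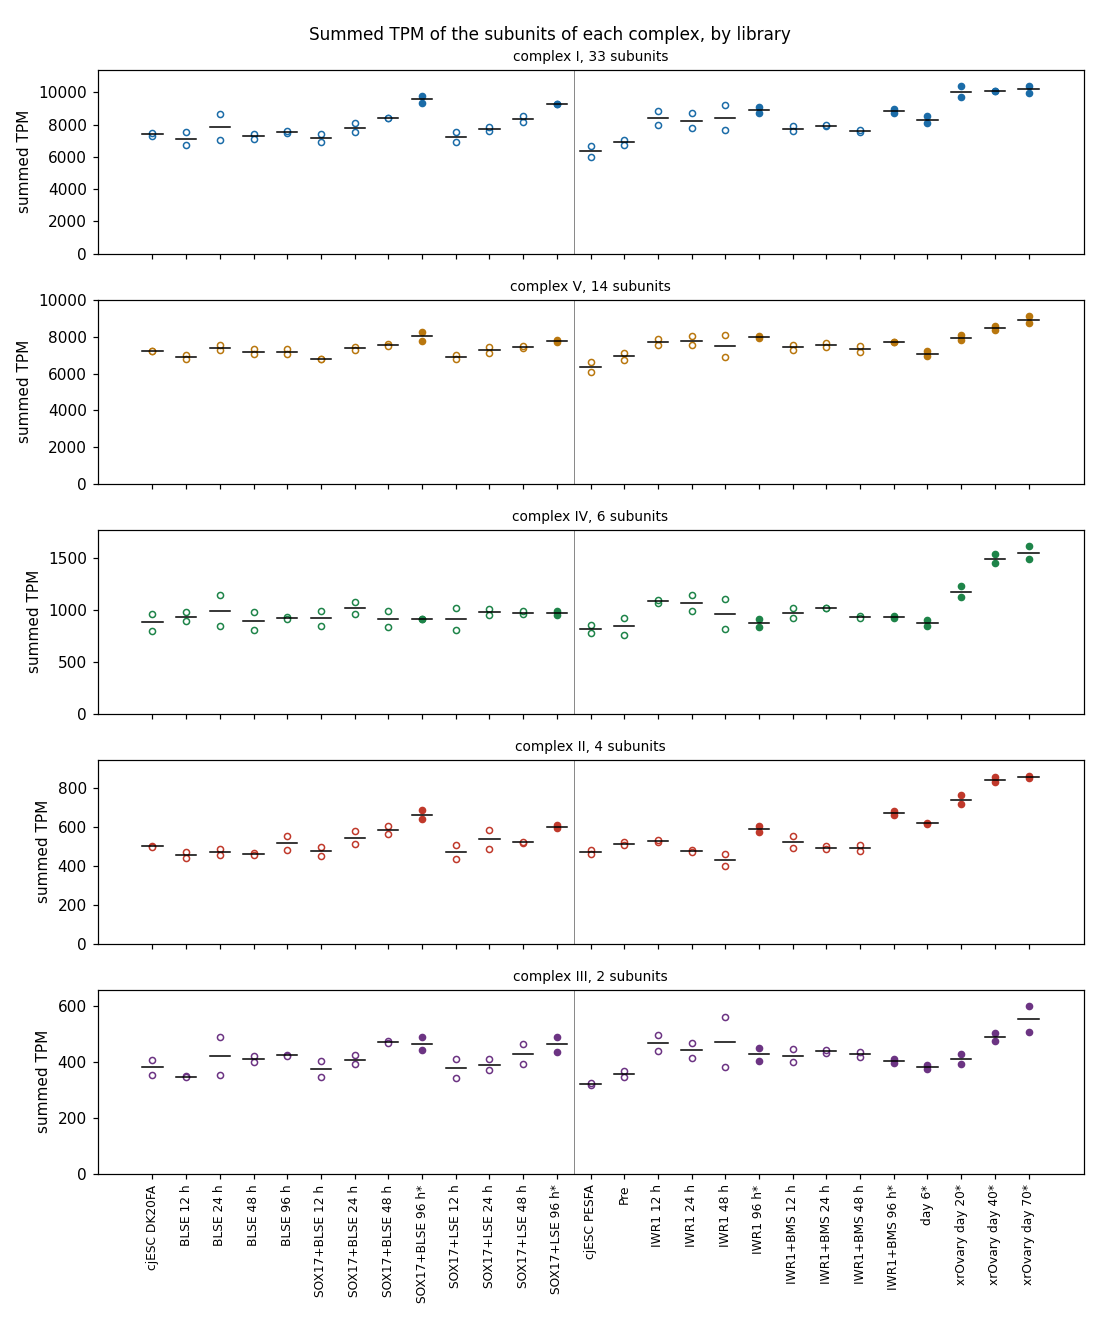
Summed TPM of the subunits of each complex (vertical axes, from 0) in the 27 conditions (horizontal axis), with 1 point per library, a bar at the mean of 2 libraries and filled points for tdTomato(+) sorted cells. Day 70 has the highest mean in every panel, and complex II from day 20 and complex IV from day 40 stand clear of all earlier conditions.

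Complexes I and V carried most of the RNA of the 59 subunits, which hold only 2 members of complex III and 6 of complex IV. A further 13 subunits of complexes III and IV, which the symbol rule missed (below), were not part of these sums. They summed to 4998 ± 1.73 TPM in PESFA cjESCs and 9337 ± 470.5 TPM at xrOvary day 70, so the complexes cannot be ranked by these levels. Complex I summed to 6349 ± 460 TPM in PESFA cjESCs and 10185 ± 272 TPM at xrOvary day 70, and complex V to 6358 ± 351 and 8937 ± 248 TPM. Complex IV, here mostly COX8A and NDUFA4, stood at 818 TPM in PESFA cjESCs, 875 ± 35.9 at day 6, 1177 ± 77.4 at day 20, 1496 ± 65.9 at day 40 and 1552 ± 86.8 at day 70. Complex II summed to 431 ± 44.1 TPM in IWR1 at 48 h, its lowest condition, and to 738, 840 and 855 TPM at days 20, 40 and 70. Complex III, represented by UQCR10 and UQCRQ, stood at 322 ± 3.51 TPM in PESFA cjESCs and at 553 ± 65.1 TPM at day 70, and these sums carry no test.

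Among single subunits, ATP5F1B, the catalytic beta subunit of the ATP synthase head, had the highest mean level, 1646 TPM over all libraries. Among the 59, NDUFA1 (677 TPM) was the highest of complex I and the iron-sulfur subunit SDHB (199.6 TPM) of complex II. UQCR10 (286 TPM) led complex III and COX8A (554 TPM) complex IV, again among the 59 only. Subunits of both complexes that the symbol rule missed (below) stood higher. UQCRH had a median of 556.5 TPM in the tdTomato(+) libraries and 465.5 TPM in the others, and COX4I1 1182 and 1090 TPM. A mean above 100 TPM was reached by 51 of the 59 subunits. All 59 passed the filter on low values, a log2(TPM + 1) of at least 1.5 in at least 1 library, as did 11197 genes in all. RSEM divides reads among near-identical copies, and many subunit genes are known to have processed pseudogenes, so that the level of a single subunit is uncertain where reads were shared.

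At the other end, 4 members had means below 5 TPM. COX6A2, the heart and muscle form of COX6A, ranged from 0 to 9.63 TPM and was at 0 in 15 libraries. COX4I2, the lung form of COX4, ranged from 0 to 6.38 TPM, with 8 libraries at 0. The testis form COX8C ranged from 0 to 5.04 TPM, with 30 libraries at 0, against 409 to 1076 TPM for its ubiquitous counterpart COX8A. NDUFA4L2, known as a hypoxia-induced counterpart of NDUFA4, ranged from 0 to 2.56 TPM, with 20 libraries at 0. Set against the ubiquitous forms within each library, COX4I2 reached at most 0.703% of COX4I1 and COX6A2 at most 1.91% of COX6A1. The c-ring gene ATP5MC1 lay between 21.6 and 36.3% of ATP5MC2, which codes for the same mature protein.

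The subunits varied less than other genes between replicates and between conditions. The residual SD between replicates on the log2(TPM + 1) scale had a median of 0.132 for the subunits and 0.234 for all genes tested, and the range of the 27 condition means had a median of 1.12 against 1.62, with abundance not matched. The range was above 1 for 34 subunits and below 1 for 25. ATP5F1A, the alpha subunit of the ATP synthase head, was the steadiest, between 418 and 537 TPM in all 54 libraries, with a range of 0.31. ATP5F1C (0.43), ATP5F1B (0.54), the complex I core subunit NDUFS7 (0.58) and NDUFA6 (0.61) were the next steadiest. Beside the 4 members with means below 5 TPM, the widest ranges were those of NDUFA7 (1.75), NDUFA10 (1.75), NDUFA2 (1.70), NDUFC1 (1.68) and NDUFB1 (1.67) of complex I, and SDHB (1.67) and SDHA (1.66) of complex II. The condition with the lowest mean was PESFA cjESC for 26 of the 59 subunits, and the highest mean fell in the xrOvary for 32 (day 20 for 9, day 40 for 9 and day 70 for 14).

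**Figure D2:**
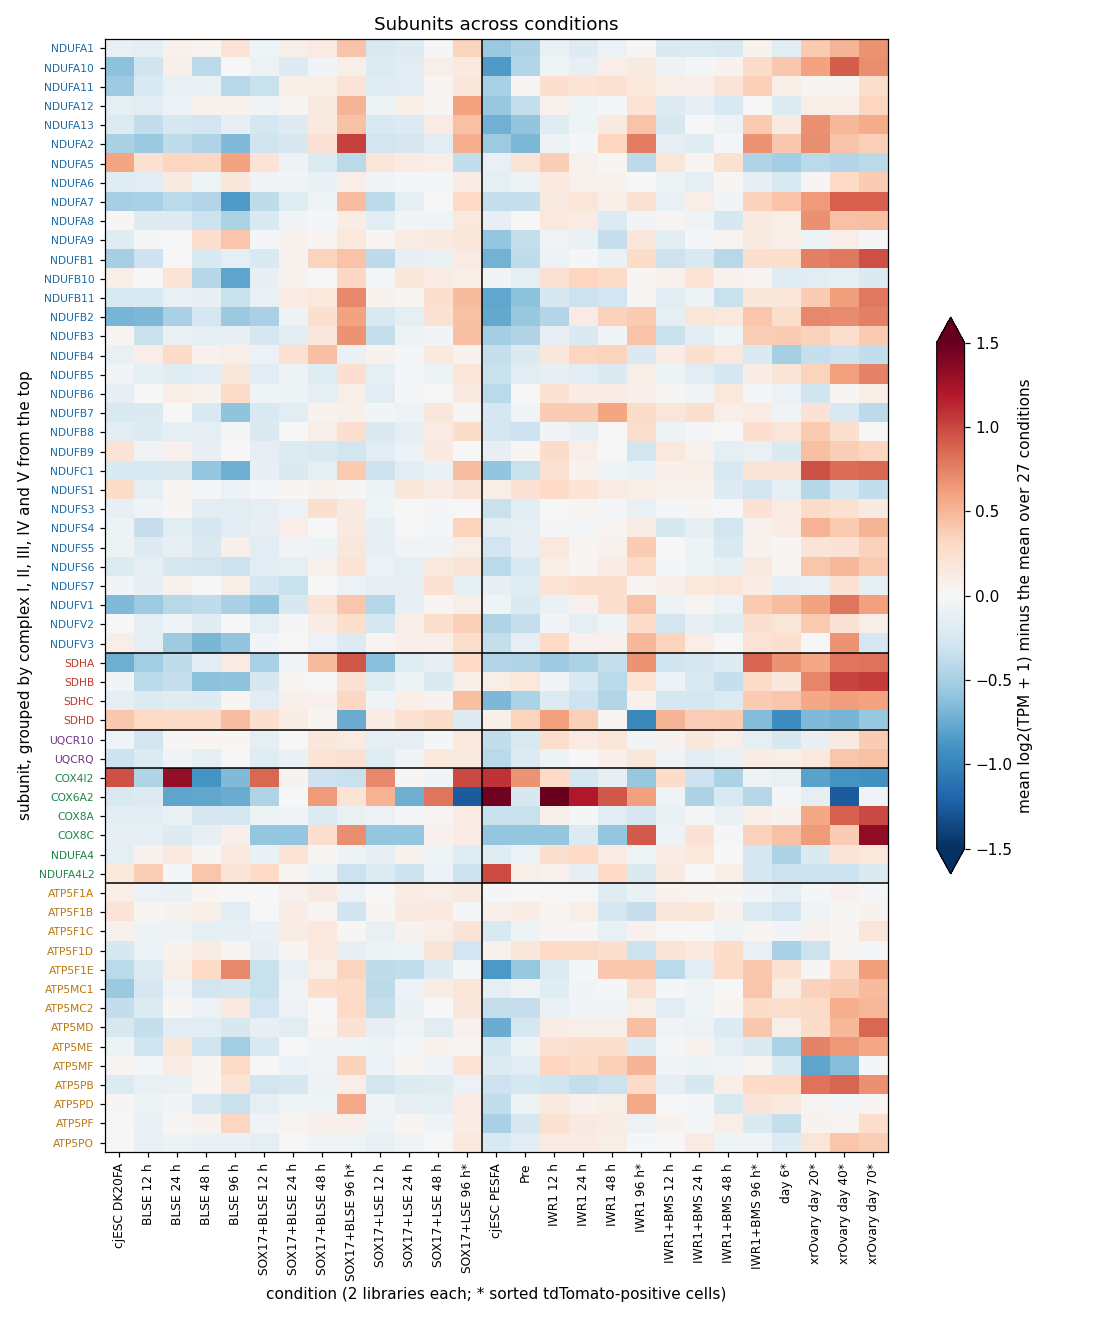
Mean log2(TPM + 1) of the subunits (rows, all but 1 of the 59, by complex from I at the top to V) in each condition (columns), as the difference from that subunit's mean over the 27 conditions, with the TG+ line left of the vertical line and asterisks for sorted tdTomato(+) cells. Most rows are above their mean in the xrOvary columns, whereas NDUFA5 and SDHD are below it in the sorted columns.

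Of the 59 subunits, 2 separated the 16 libraries of tdTomato(+) cells from the 38 others without overlap, and both were lower in the sorted cells. SDHD, a membrane anchor of complex II, lay between 47.2 and 91.8 TPM in the sorted libraries and between 94.4 and 164 TPM elsewhere. NDUFA5, a subunit of the complex I arm that takes up NADH electrons, lay between 97.9 and 127 TPM in the sorted libraries and between 128 and 264 TPM elsewhere. The gap was narrow in both cases. Of all genes tested, 2.31% were lower and 2.97% higher without overlap in the sorted libraries, and no subunit was higher. The 2 of 59 lower were thus near the background, and the split does not set the subunits apart from other genes. This split was looked at after the values were seen, it carries no test, and sort and time cannot be told apart in it.

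SDHA and SDHD, 2 subunits of the same 4-subunit enzyme, moved apart in SOX17 + BLSE. SDHA, the flavoprotein that binds succinate, stood at 66.1 and 79.9 TPM in the 2 libraries of DK20FA cjESCs, 124 and 112 TPM at 24 h in SOX17 + BLSE, 179 and 161 TPM at 48 h and 254 and 212 TPM in the sorted cells at 96 h. SDHD stood at 150 and 125 TPM in DK20FA cjESCs and at 55.6 and 66.6 TPM in the sorted cells at 96 h. The ratio of SDHA to SDHD within a library, which no scaling of libraries can change, was 0.440 and 0.640 in DK20FA cjESCs, 0.850 and 1.01 in BLSE at 96 h, and 4.56 and 3.19 in SOX17 + BLSE at 96 h. On the TG- side it was 0.616 and 0.746 in Pre cells, 3.13 and 4.39 in IWR1 at 96 h, and 3.08 and 3.09 at xrOvary day 70. Over all libraries, the ratio of SDHA to SDHD ran from 1.53 to 4.56 in the sorted ones and from 0.440 to 1.76 in the others. These ranges overlapped, with 1.76 and 1.48 in unsorted SOX17 + BLSE cells at 48 h. In complex I, the ratio of NDUFA2 to NDUFA5 ran from 1.52 to 2.74 in the sorted libraries and from 0.368 to 1.44 in the others. Both ratios were chosen after the values were seen. Their denominators, SDHD and NDUFA5, already split the sorted libraries from the others, so the ratios add no separate evidence of that split.

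**Figure D3:**
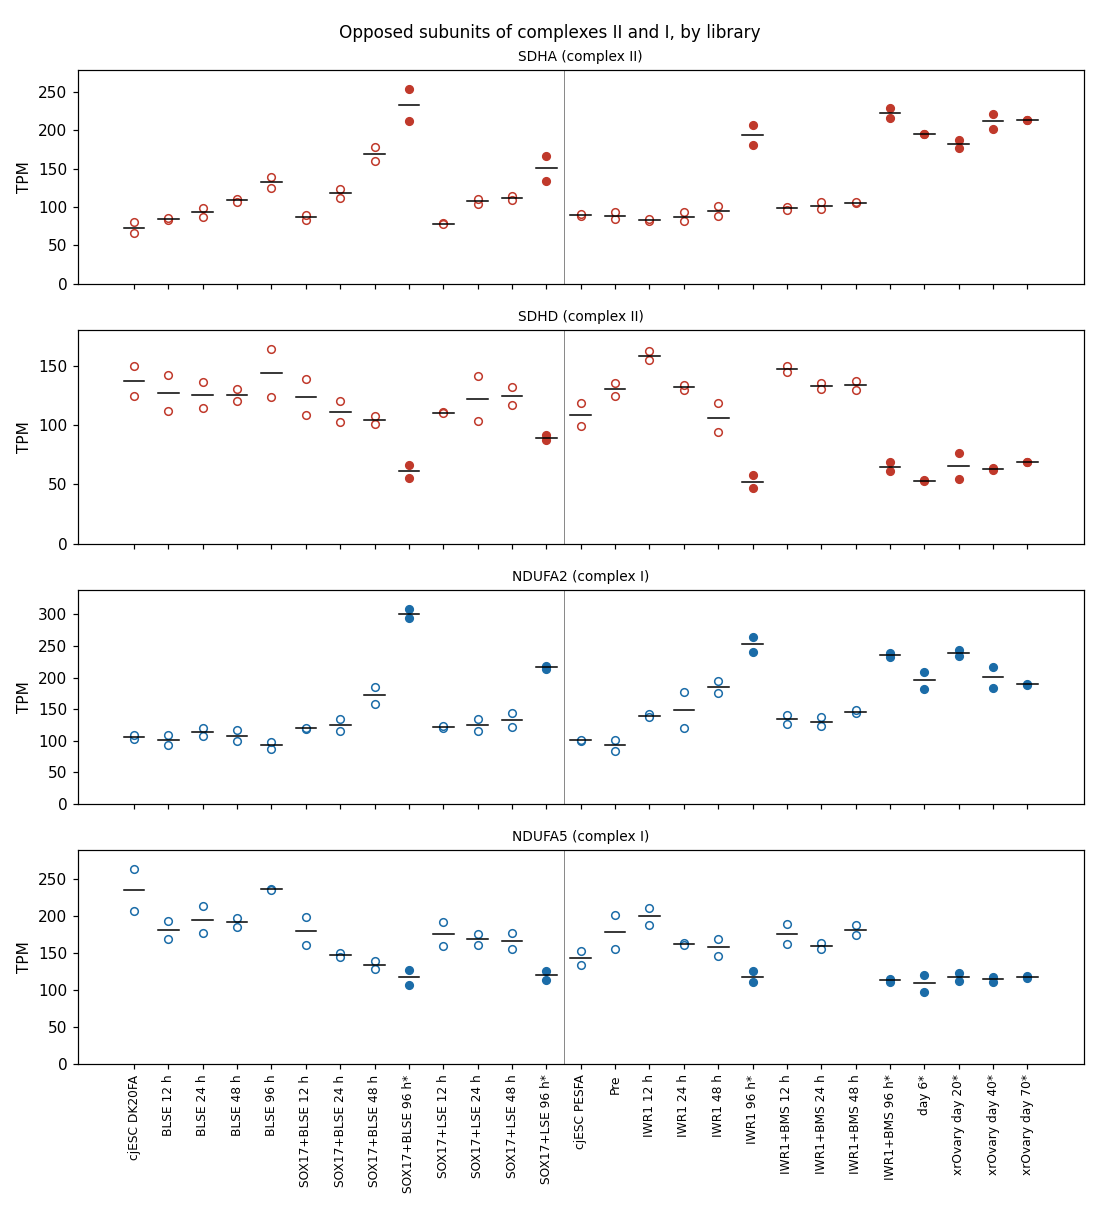
TPM of SDHA, SDHD, NDUFA2 and NDUFA5 (vertical axes, from 0) in every library, with a bar at the mean of the 2 libraries of each condition and filled points for tdTomato(+) sorted cells. SDHA and NDUFA2 are high where SDHD and NDUFA5 are low, in the sorted 96 h, day 6 and xrOvary libraries.

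Comparisons between conditions were made with limma on log2(TPM + 1) over all 54 libraries, and a subunit was called where the p-value, adjusted over all genes tested by the Benjamini-Hochberg method, was under 0.05. Differences are given on that log2 scale with their standard error (SE). With 2 libraries against 2, an exact permutation test of one gene cannot go below p = 0.33. The furthest called difference of a subunit was 1.69 on the log2 scale, for NDUFA2 in SOX17 + BLSE against BLSE at 96 h.

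The 2 kinds of cjESC were compared first. PESFA cjESCs had 5 of 59 subunits higher and 14 lower than DK20FA cjESCs, where 11.5% of all genes were higher and 15.2% lower. The median log2 difference was -0.20 for the subunits and -0.08 for all genes. NDUFA5 stood at 153 and 135 TPM in PESFA and at 264 and 207 TPM in DK20FA (log2 difference -0.70 ± 0.13 SE, limma adjusted p = 0.000141). SDHC, the other membrane anchor of complex II, stood at 74.2 and 68.5 against 102 and 106 TPM (-0.54 ± 0.12, adjusted p = 0.00109). NDUFV1, which holds the flavin site where NADH is oxidised, was higher in PESFA, with 154 and 151 against 104 and 98.2 TPM (0.59 ± 0.12, adjusted p = 0.000402). NDUFB11 (-0.55), NDUFB3 (-0.55), ATP5MC1 (0.41) and NDUFA4L2 (0.83, at the edge of detection) were the other largest calls.

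These calls rested on scaling, on single libraries and on the other conditions in the fit. A limma fit of only the 4 libraries compared called 0 subunits higher and 0 lower, which ended all 19 calls. With the libraries scaled by the median ratio over genes, 3 subunits remained lower in PESFA and 5 higher, beside 10.9% and 14.7% of all genes, and the higher share of all calls moved from 43.1 to 57.3%. Without PESFA replicate 2 the count of lower subunits was 6, and the count of higher subunits fell to 2 without DK20FA replicate 1 and to 3 without either PESFA library. The list of 6 mesoderm and stroma markers summed to 3065 to 3478 TPM in PESFA cjESCs against 719.4 to 1316 TPM in DK20FA cjESCs, with none of the 6 at 0 in either, and its part in the result was not tested. Between Pre cells and PESFA cjESCs limma called 0 subunits in either direction, where 0.447% of all genes were called higher and 0.679% lower. At an unadjusted p under 0.05, 5 subunits were higher and 1 lower, beside 6.81% and 5.53% of all genes.

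BLSE without SOX17 gave mixed changes, and the shares of subunits called were not above those of all genes. After 12 h, 0 subunits were higher and 3 lower than in DK20FA cjESCs by limma, where 7.26% of all genes were higher and 6.84% lower. At an unadjusted p under 0.05 the counts were 2 and 8, beside 12% and 14.1% of all genes. The 3 lower were the core subunit NDUFS1 (-0.43), SDHB (-0.37) and NDUFB3 (-0.37). None of the 3 kept its call without BLSE 12 h replicate 1 or without BLSE 12 h replicate 2, where 1 other subunit was called, and NDUFB3 alone kept it without DK20FA replicate 1. A fit of only the libraries compared called 0 lower, and median-ratio scaling gave 1.

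After 96 h in BLSE, 9 of 59 subunits were higher and 12 lower than in DK20FA cjESCs, beside 16.2% and 23% of all genes. Both counts were thus close to the background. ATP5F1E, the small epsilon subunit of the ATP synthase head, stood at 664 and 602 TPM against 289 and 290 TPM (1.12 ± 0.15 SE, limma adjusted p = 1.52e-07). SDHA rose to 140 and 125 TPM (0.85 ± 0.11, adjusted p = 5.36e-08), while its partner SDHB fell from 185 and 186 TPM to 130 and 121 TPM (-0.56 ± 0.13, adjusted p = 0.000467). NDUFB10, a subunit of the complex I membrane arm, fell from 218 and 248 TPM to 114 and 140 TPM (-0.88 ± 0.12, adjusted p = 1.65e-07). SDHD, with 164 and 124 TPM against 150 and 125, was not called. NDUFA10 (0.61), NDUFA9 (0.59) and ATP5MC2 (0.51) were also higher. COX4I2, below 7 TPM in all libraries, was called lower (-1.62). By complex, I had 4 subunits higher and 7 lower, V 4 and 3, II 1 and 1, and IV 0 and 1.

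Under median-ratio scaling the counts in BLSE at 96 h were 10 higher and 3 lower, beside 20.2% and 20% of all genes, and a fit of only the libraries compared called 4 lower. The higher count fell to 5 without DK20FA replicate 1 and to 4 without BLSE 96 h replicate 1. ATP5F1E, SDHA, SDHB, NDUFB10 and ATP5MC2 passed under every setting tried. These cells were not sorted, and beside the fall of POU5F1 the mesoderm and stroma markers summed to 4040 to 4916 TPM, with none at 0. The 2 erythroid markers in the table (of 6 listed), almost all ALAS2, summed to 195.4 to 201 TPM against 32.85 to 68.29 TPM. The part of these cells in the result was not tested.

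The sorted SOX17 + BLSE cells differed from cjESCs in most of complex I and in 3 of the 4 subunits of complex II. In these cells at 96 h, 28 subunits were higher and 6 lower than in DK20FA cjESCs, against 31.9% and 21.6% of all genes. The share of subunits, 47.5% higher and 10.2% lower, was thus above the background in the one direction and below it in the other. The median log2 difference was 0.30 for the subunits and 0.14 for all genes. In complex I 19 of 33 were higher and 2 lower, in complex II 2 and 1 of 4, in complex III 1 and 0 of 2, in complex IV 0 and 1 of 6, and in complex V 6 and 2 of 14. Median-ratio scaling, which shifted the median of all genes by -0.144, gave 16 higher and 8 lower. These are 27.1% and 13.6% of the subunits, beside 26% and 27.6% of all genes, so that after scaling the higher share was close to the background. The higher share of all calls moved from 59.6 to 48.6%.

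SDHA showed the furthest rise (1.66 ± 0.11 SE, 3.16-fold, limma adjusted p = 3.6e-15). NDUFA2, a complex I subunit of the electron-input arm, rose from 102 and 108 TPM to 294 and 308 TPM (1.51 ± 0.13, adjusted p = 5.36e-12). NDUFB2 of the membrane arm rose from 124 and 128 TPM to 314 and 307 TPM (1.29 ± 0.16, adjusted p = 8.42e-09), and NDUFV1 from 104 and 98.2 TPM to 219 and 208 TPM (1.07 ± 0.12, adjusted p = 3.55e-09). In all these, both sorted libraries lay above both cjESC libraries. NDUFA7 (0.97), NDUFB11 (0.94), NDUFB1 (0.93) and the c-ring gene ATP5MC1 (0.84) followed.

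SDHD fell by 1.16 (SE 0.16, adjusted p = 1.17e-07) and NDUFA5, at 107 and 127 TPM against 264 and 207, by 0.99 (SE 0.13, adjusted p = 1.07e-07), again without overlap of the libraries. ATP5F1B fell from 1881 and 1860 TPM to 1344 and 1319 TPM (-0.49 ± 0.08, adjusted p = 2.38e-06). The ATP synthase was thus not uniform, with both c-ring genes higher (median 0.75) and the 5 head subunits split into 1 higher and 2 lower (median -0.04). COX4I2 was called lower at -1.29 with an adjusted p of 0.0495, but its libraries overlapped. The calls of 17 subunits, among them SDHA, SDHD, NDUFA2, NDUFA5, NDUFB2, NDUFV1 and ATP5F1B, passed under every setting tried. Mesoderm and stroma markers summed to 164.9 to 191.7 TPM in these cells, with COL3A1 at 0, and their part in the result was not tested.

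**Figure D4:**
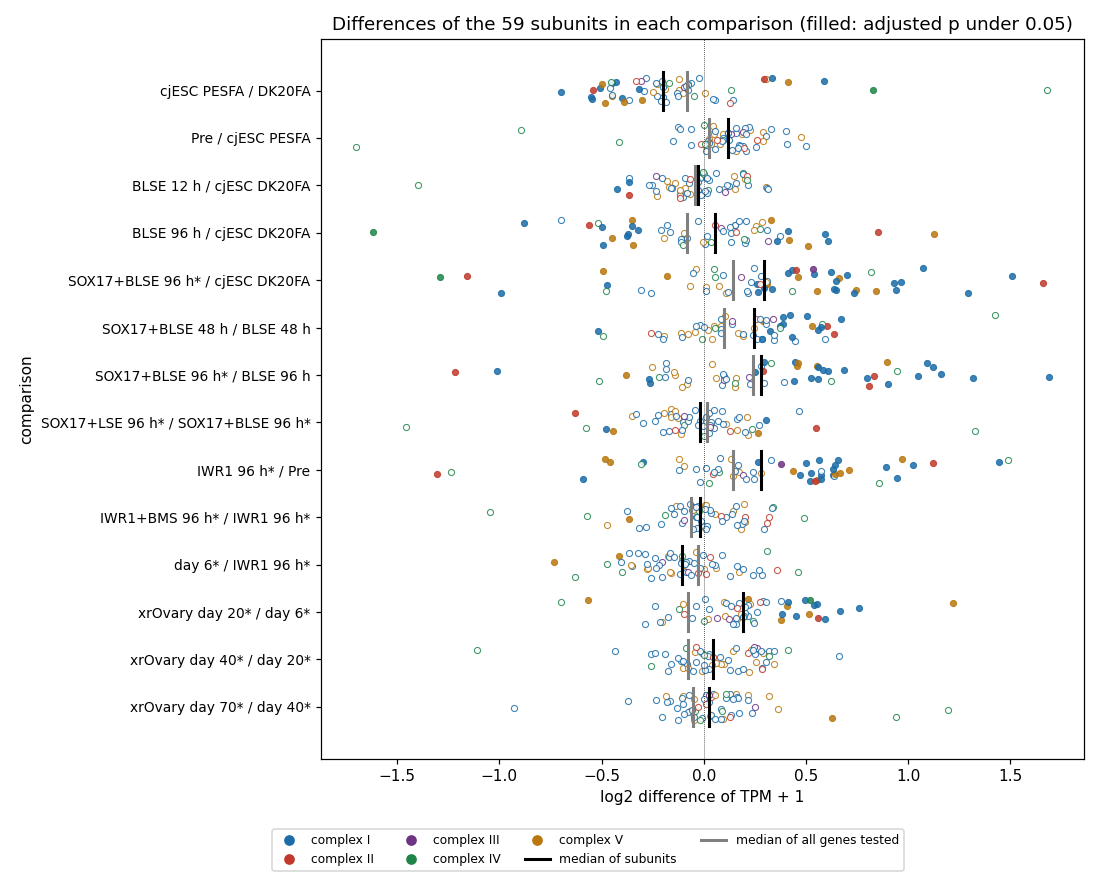
Log2 difference of each of the 59 subunits (points, coloured by complex) in each comparison (rows), from limma on log2(TPM + 1), with filled points for called subunits, a black bar at the median of the subunits and a grey bar at that of all genes tested. In the sorted 96 h cells of SOX17 + BLSE and IWR1, set against their starting cells, SDHA (1.66 and 1.12) and NDUFA2 (1.51 and 1.45) are among the filled points at the right and SDHD (-1.16 and -1.31) is at the left.

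BLSE with and without SOX17 was compared at 48 h, when neither sample had been sorted. Dexamethasone was added only where SOX17 was induced, so that SOX17 and dexamethasone cannot be told apart here or at 96 h. SOX17 + BLSE had 15 subunits higher and 1 lower than BLSE, beside 15.7% and 9.49% of all genes, and the median difference was 0.24 against 0.10. NDUFA2 stood at 184 and 159 TPM with SOX17 (0.67 ± 0.13 SE, limma adjusted p = 0.000172). SDHA was higher by 0.64 ± 0.11 (adjusted p = 2.69e-05). SDHB stood at 199 and 180 TPM with SOX17 and at 117 and 132 TPM without (0.61 ± 0.13, adjusted p = 0.000368), and NDUFV1 was higher by 0.57 ± 0.12. NDUFA5, at 128 and 139 TPM with SOX17, was the 1 subunit called lower (-0.51 ± 0.13, adjusted p = 0.00388). Of the 15 higher, 11 belonged to complex I, 2 to complex II and 2 to complex V.

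Unscaled, the 15 higher were 25.4% of the subunits, above the background. Scaling gave 4 higher and 2 lower at 48 h, 6.78% and 3.39% of the subunits beside 11.9% and 13.2% of all genes, so that the higher share then lay below the background. It moved the higher share of all calls from 62.4 to 47.4%. The higher count fell to 5 without BLSE 48 h replicate 2 and to 7 without SOX17 + BLSE 48 h replicate 1, and without the latter NDUFA5 lost its call. NDUFA2, SDHA, SDHB and NDUFV1 passed under every setting. The mesoderm and stroma markers summed to 1443 to 1601 TPM with SOX17 and 3569 to 3654 TPM without, and their part in the result was not tested.

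At 96 h, sorted SOX17 + BLSE cells had 25 subunits higher and 5 lower than unsorted BLSE cells, against 36.1% and 19.5% of all genes. The subunits were thus close to the background for higher calls, with medians of 0.28 and 0.24. NDUFA2 (294 and 308 against 87.4 and 98.2 TPM) was 1.69 ± 0.13 SE higher (3.22-fold, limma adjusted p = 1.85e-13). NDUFA7 (207 and 193 against 72.8 and 86.8 TPM) was 1.32 ± 0.12 higher (adjusted p = 2.21e-11), and NDUFB10 (284 and 257 against 114 and 140 TPM) was 1.09 ± 0.12 higher (adjusted p = 7.89e-10). SDHB was higher by 0.83 and SDHA by 0.81, while SDHD was lower by 1.21 ± 0.16 (log2 difference -1.21, adjusted p = 3.6e-08) and NDUFA5 had a difference of -1.01. ATP5F1E, which had risen in both, was lower with SOX17 (-0.38). Scaling shifted the median of all genes by -0.240, gave 11 higher and 13 lower subunits (18.6% and 22.0%, beside 25.9% and 28.2% of all genes), and moved the higher share of all calls from 64.9 to 47.8%. The lower count fell to 2 without BLSE 96 h replicate 1, 2 without SOX17 + BLSE 96 h replicate 1 and 3 without SOX17 + BLSE 96 h replicate 2. The cells differ in sort as well as in SOX17 and dexamethasone, and these cannot be told apart.

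The opposition of SDHA and SDHD was smaller without BMP4. In sorted SOX17 + LSE cells at 96 h, 3 subunits were higher and 3 lower than in sorted SOX17 + BLSE cells, beside 7.83% and 5% of all genes. SDHA stood at 134 and 167 TPM against 254 and 212 TPM (-0.63 ± 0.11 SE, limma adjusted p = 8.47e-05). SDHD stood at 87.3 and 91.8 TPM against 55.6 and 66.6 TPM (0.55 ± 0.16, adjusted p = 0.0156). NDUFA2, at 213 and 219 TPM, was lower by 0.48 (SE 0.13; log2 difference -0.48, adjusted p = 0.0121), and ATP5PD, a peripheral stalk subunit, had a difference of -0.44. The ratio of SDHA to SDHD was 1.53 and 1.82 without BMP4, below both SOX17 + BLSE libraries. ATP5F1B (0.27) was also called higher. The calls were not stable to leaving out libraries, with 0 higher without SOX17 + LSE replicate 1, and 1 higher and 1 lower without SOX17 + BLSE replicate 2. A fit of these 4 libraries alone called 0 in either direction. The mesoderm and stroma markers summed to 359.3 to 471.3 TPM in SOX17 + LSE and 164.9 to 191.7 TPM in SOX17 + BLSE, a difference whose part in the result was not tested.

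The route without transgene induction was set against its own starting cells. Sorted IWR1 cells at 96 h had 25 subunits higher and 5 lower than the Pre cells they came from, against 29.9% and 21.3% of all genes, with medians of 0.28 and 0.14. NDUFA2 rose from 101 and 83.4 TPM to 240.2 and 265 TPM (1.45 ± 0.13 SE, limma adjusted p = 2.03e-11). SDHA rose from 83.9 and 93.3 TPM to 180.4 and 207 TPM (1.12 ± 0.11, 2.17-fold, adjusted p = 1.08e-10). NDUFA13 (1.02), NDUFB2 (0.95), NDUFB3 (0.89) and ATP5F1E (0.97) also rose, although the 2 IWR1 libraries of ATP5F1E, 647 and 399 TPM, lay far apart. SDHD fell from 136 and 125 TPM to 57.7 and 47.2 TPM (-1.31 ± 0.16, adjusted p = 1.16e-08), and NDUFA5 from 202 and 156 TPM to 125 and 110 TPM (-0.59 ± 0.13, adjusted p = 0.000384). ATP5F1D (-0.48), ATP5F1B (-0.46) and NDUFB9 (-0.30) were lower too. By complex, I had 16 higher and 2 lower, II 2 and 1, III 1 and 0, and V 6 and 2.

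Unscaled, 42.4% of the subunits were higher. After scaling the counts were 14 higher and 8 lower, 23.7% and 13.6% of the subunits beside 21.9% and 27.9% of all genes, so that the higher share was then close to the background. Scaling shifted the median of all genes by -0.179 and moved the higher share of all calls from 58.4 to 44.0%. Without IWR1 96 h replicate 2 the lower count was 3. Pre cells carried mesoderm and stroma markers at 2428 to 4350 TPM, with COL1A1 the most abundant, against 307.7 to 373.1 TPM in the sorted IWR1 cells, with none at 0, and the part of these markers in the result was not tested.

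The 2 routes share no library in these comparisons. Of the subunits called higher, 23 were called in both, which is 82.1% of the 28 in SOX17 + BLSE and 92% of the 25 in IWR1. Of all genes called higher, 2339 were shared, 65.6% and 69.9% of each list. Of the subunits called lower, 4 were shared (SDHD, NDUFA5, ATP5F1B and NDUFB9), 66.7% and 80% of each list, beside 63.5% and 64.3% for all genes. None was called in opposite directions, and the share of all genes called so was not counted. These overlaps are without median-ratio scaling, where the median of all genes was above 0 in both routes (0.144 and 0.142). Scaling changed the subunit counts from 28 to 16 higher and 6 to 8 lower in SOX17 + BLSE. In IWR1 they went from 25 to 14 higher and 5 to 8 lower. The overlap after scaling was not counted, and the part of the shared shift in it was not tested.

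The difference between the 2 changes was tested directly. It called 0 subunits as rising more in the IWR1 route and 3 as rising less, SDHA, ATP5MC1 and ATP5F1D, where 6.51% and 9.25% of all genes were called. At an unadjusted p under 0.05 the counts were 3 and 6, beside 12.8% and 15.7% of all genes. A fit of only the libraries compared called 1 as rising less. No subunit was left among the 3 without DK20FA replicate 1 or Pre replicate 2, and 1 was left without SOX17 + BLSE 96 h replicate 2 or IWR1 96 h replicate 2. Line, medium and pre-treatment differ between the routes as well and cannot be told apart from SOX17 and its induction by dexamethasone.

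BMS493 and 2 further days in culture brought few calls. IWR1 + BMS cells at 96 h had 0 subunits higher and 1 lower than IWR1 cells by limma, beside 1.27% and 1.39% of all genes. At an unadjusted p under 0.05 the counts were 3 and 4, beside 5.98% and 9.65% of all genes. The 1 called was ATP5PD (-0.37 ± 0.10 SE, limma adjusted p = 0.0469), which lost its call without IWR1 96 h replicate 2 or either IWR1 + BMS library. SDHA, at 216 and 229 TPM, and SDHD, at 61.2 and 69.1 TPM, were not called. Day-6 cells had 0 subunits higher and 2 lower than IWR1 cells at 96 h, beside 2.04% and 3.8% of all genes. At an unadjusted p under 0.05 the counts were 3 and 10, beside 6.89% and 11.5% of all genes. ATP5MF, a membrane subunit of the ATP synthase, stood at 301 and 320.3 TPM against 482 and 553 TPM (-0.73 ± 0.15, adjusted p = 0.0014), and ATP5PD had a difference of -0.41 (adjusted p = 0.0112). None of the 2 was left without IWR1 96 h replicate 2 and 1 without day-6 replicate 1. A fit of only the libraries compared called 0 subunits in each of these comparisons.

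In the xrOvary at day 20, calls of subunits were nearly all in the higher direction, whereas among all genes lower calls prevailed. At this age, 16 subunits were higher and 1 lower than in day-6 PGCLCs, which is 27.1% and 1.69% of them, whereas 10.4% of all genes were higher and 19.2% lower. The median difference was 0.19 for the subunits and -0.08 for all genes, and median-ratio scaling left the counts at 16 and 1. Complex I gave 9 of the higher calls, complex V 5, and complexes II and IV 1 each.

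ATP5ME, a small membrane subunit of the ATP synthase, stood at 276 and 306 TPM at day 6, 729 and 630.4 TPM at day 20, 641 and 625 TPM at day 40 and 602 and 608 TPM at day 70. Its day-20 rise was 1.22 ± 0.14 SE (2.33-fold, limma adjusted p = 1.54e-08). COX8A rose from 554 and 564 TPM at day 6 to 779 and 826 TPM at day 20 (0.52 ± 0.11, adjusted p = 0.000272), and stood at 976 and 1027 TPM at day 40 and 1076 and 1056 TPM at day 70. SDHB rose from 214 and 216 TPM to 317 and 318 TPM (0.56 ± 0.13, adjusted p = 0.000735), with 372 and 402 TPM at day 40 and 386 and 409 TPM at day 70. In COX8A and SDHB every library of a later day lay above every library of day 6. NDUFC1 (16.3 and 20.4 TPM to 32.0 and 31.3 TPM, 0.76), NDUFB9 (0.67), NDUFA8 (0.59) and the peripheral stalk subunit ATP5PB (0.52) were also higher.

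ATP5MF went the other way. It fell from 301 and 320.3 TPM at day 6 to 196 and 224 TPM at day 20 (-0.57 ± 0.15 SE, limma adjusted p = 0.00297), was at 219 and 245 TPM at day 40, and returned to 365 and 351 TPM at day 70 (0.63 ± 0.15 against day 40, adjusted p = 0.00593). The ratio of ATP5ME to ATP5MF within a library spanned 0.590 to 3.73 over all 54 libraries. SDHA (176 and 188 TPM at day 20, 222 and 202 TPM at day 40, 214 and 213 TPM at day 70) and SDHD (54.9 and 76.4, 63.9 and 62.3, then 69.4 and 68.9 TPM) were not called between any neighbouring ages.

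**Figure D5:**
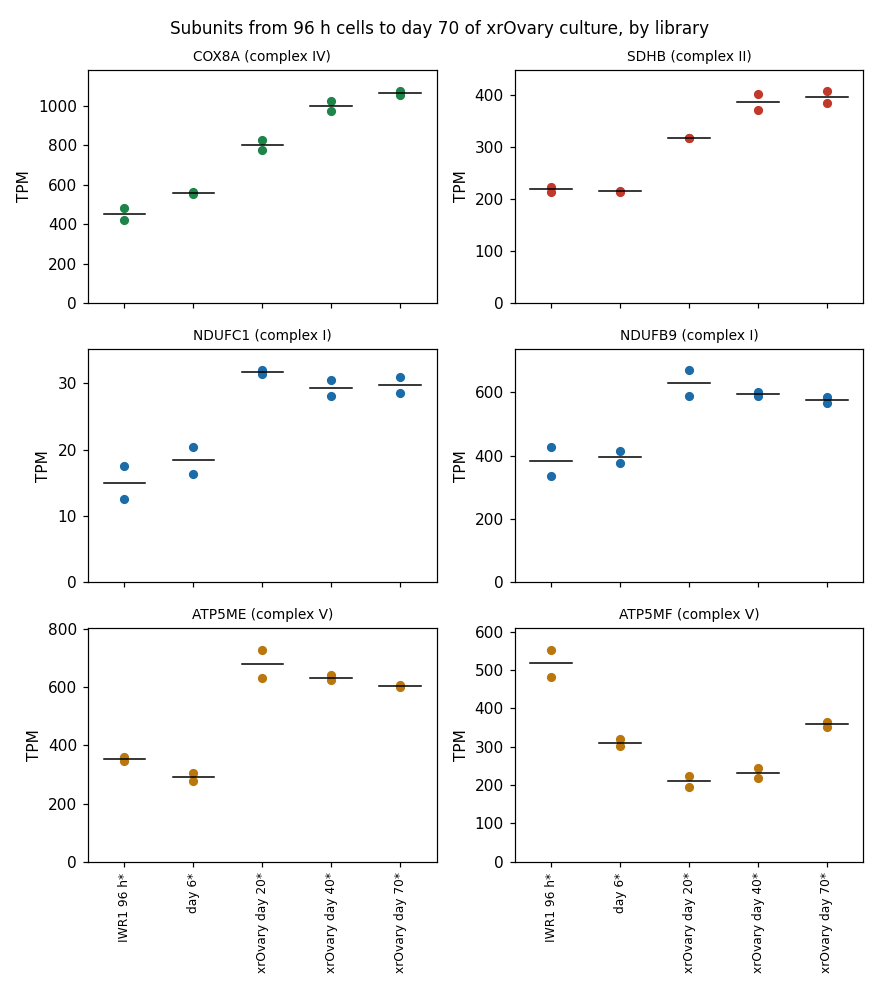
TPM of COX8A, SDHB, NDUFC1, NDUFB9, ATP5ME and ATP5MF (vertical axes, from 0) from IWR1 96 h cells and day-6 PGCLCs to xrOvary days 20, 40 and 70 (horizontal axis), with 1 point per library and a bar at the mean of 2. COX8A and SDHB stand higher at each later age than at day 6, ATP5ME steps up at day 20, and ATP5MF is lowest at day 20.

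From day 20 to day 40 limma called 0 subunits in either direction, beside 2.55% and 6.45% of all genes. At an unadjusted p under 0.05, 11 subunits were higher and 1 lower, beside 6.94% and 14.9% of all genes. From day 40 to day 70 it called 1 higher, ATP5MF, and 0 lower, beside 1.23% and 3.81%, and the counts at an unadjusted p under 0.05 were 3 and 2, beside 3.77% and 10.9%. The call of ATP5MF was lost without day-40 replicate 1, without day-70 replicate 1 and in a fit of only the libraries compared. At day 20, ATP5ME, COX8A, SDHB and NDUFB9 passed under every setting. The higher count was 10 without day-6 replicate 1 or without day-20 replicate 1, the lower count was 3 without day-20 replicate 1, and a fit of these 4 libraries alone gave 5 higher and 0 lower. Of 8 gonadal somatic markers 6 were in the table, and they summed to at most 4.4 TPM in the xrOvary libraries against 0.14 to 0.54 TPM at day 6, with NR5A1 at 0 throughout. The gonadal somatic cells were of mouse and reads were aligned to the marmoset assembly. These sums therefore cannot show how many mouse cells were collected. The mesoderm and stroma markers, almost all VIM, summed to 641.3 to 711.2 TPM at day 20, with SNAI2 and DCN at 0, against 238.4 to 259.9 TPM at day 6, and their part in the result was not tested.

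A further 13 subunits carry a locus number in place of a symbol and were matched by gene ID to RefSeq names, a step taken after the files were seen: COX4I1, COX5A, COX6A1, COX6B1, COX7A1, COX7A2, COX7B, COX7C, UQCRB, UQCRC1, UQCRC2, UQCRFS1 and UQCRH. They fill in most of the nuclear subunits of complexes III and IV. Of the 13, 5 were higher and 1 lower in SOX17 + BLSE at 96 h against DK20FA cjESCs, 4 and 1 in IWR1 at 96 h against Pre, and 6 and 0 at xrOvary day 20 against day 6. The higher calls were 38.5, 30.8 and 46.2% of the 13, where all genes had 31.9, 29.9 and 10.4%, so that the first and second shares were near the background. COX5A, a matrix-side subunit of complex IV, ranged from 311 TPM in an IWR1 48 h library to 1231 TPM in a day-70 library, and rose between day 20 and day 40 (0.51 ± 0.11 SE, limma adjusted p = 0.00261). COX7A1, the heart and muscle form of COX7A, reached at most 37.3 TPM and 0.623 to 12.1% of COX7A2, and fell to 7.16 and 2.79 TPM at day 70 (-1.14 ± 0.29 against day 40, adjusted p = 0.0124).

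Proteins that build or feed the chain were counted in the same way. Assembly factors were covered unevenly, with 14 of 15 listed tested for complex I, 4 of 4 for II and 2 of 6 for III. For complex IV 6 of 24 were tested, and for V 4 of 4. Of 30 assembly factors tested, 12 were higher and 2 lower in SOX17 + BLSE at 96 h against DK20FA cjESCs, 9 and 0 against BLSE at 48 h, 14 and 1 against BLSE at 96 h, and 11 and 2 in IWR1 at 96 h against Pre. The higher shares, 40, 30, 46.7 and 36.7%, stood beside 31.9, 15.7, 36.1 and 29.9% of all genes. At xrOvary day 20 the count was 1 higher and 5 lower, beside 10.4% and 19.2% of all genes, and the 16.7% lower was thus near the background. SCO2, which delivers copper to complex IV, stood at 50.5 ± 10.4 TPM (SD, n = 2) in SOX17 + BLSE at 96 h against 17.5 ± 4.93 TPM in DK20FA cjESCs (1.49 ± 0.24 SE, limma adjusted p = 2.52e-06). ACAD9, a complex I assembly factor, stood at 23.2 ± 2.11 TPM with SOX17 and 8.36 ± 0.601 TPM without at 48 h (1.37 ± 0.23, adjusted p = 2.21e-05). Of 13 enzymes of the tricarboxylic acid cycle, 8 were higher and 1 lower in SOX17 + BLSE at 96 h against DK20FA cjESCs, and 4 and 1 in IWR1 against Pre. The higher calls were 61.5 and 30.8% of the 13, beside 31.9 and 29.9% of all genes. The counts of assembly factors and cycle enzymes are without median-ratio scaling. That scaling cut the higher subunits in SOX17 + BLSE at 96 h against DK20FA cjESCs from 28 to 16. Over all comparisons and alternatives, the counts of these lists left a tolerance of 1.5 times in 151 cases. SUCLG2, a subunit of the succinyl-CoA ligase that makes the substrate of complex II, stood at 363 ± 38.5 TPM against 131 ± 16.5 TPM in BLSE at 96 h (1.46 ± 0.14, adjusted p = 1.72e-11). IDH3A, the catalytic subunit of the NAD-dependent isocitrate dehydrogenase, was lower in IWR1 at 96 h than in Pre, 44.2 ± 3.30 against 110 ± 8.69 TPM (-1.30 ± 0.12, adjusted p = 1.97e-11).

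The assembly factor of the ATP synthase head, ATPAF1, stood at 62.0 and 59.7 TPM in IWR1 at 96 h against 24.2 and 25.4 TPM in Pre (1.26 ± 0.14 SE, limma adjusted p = 2.9e-09), and at 51.24 and 58.96 TPM in SOX17 + BLSE against 21.5 and 16.5 TPM in BLSE at 96 h (1.496 ± 0.143, adjusted p = 3.51e-11). The head subunits ATP5F1A and ATP5F1C were not called in either of these comparisons. The other head subunits were called in IWR1 against Pre, with ATP5F1B and ATP5F1D lower and ATP5F1E higher. In SOX17 + BLSE against BLSE, ATP5F1E alone of the head subunits was called, and it was lower. TMEM186, a complex I assembly factor, was higher by 1.16 in SOX17 + BLSE at 96 h against DK20FA cjESCs and by 1.25 in IWR1 at 96 h against Pre. Of 5 electron carriers and related proteins tested, at most 2 were called in one direction in any comparison, too few to judge against all genes. Across comparisons, the share of all genes called ran from 0.447 to 36.1% for higher and from 0.679 to 23% for lower. Of 11 regulators of mitochondrial biogenesis, 4 were higher and 3 lower in SOX17 + BLSE at 96 h against DK20FA cjESCs and 2 and 2 in IWR1 against Pre. The higher shares of 36.4 and 18.2% and the lower shares of 27.3 and 18.2% stood beside 31.9 and 29.9% higher and 21.6 and 21.3% lower among all genes. Among them ESRRB, a nuclear receptor, changed by 1.53 at xrOvary day 20, but its levels were 2.52 ± 0.290 and 0.240 ± 0.339 TPM, at the edge of detection.

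The ADP/ATP carrier SLC25A4, which exchanges the product of complex V across the inner membrane, set the starting cells of the TG- line apart. It stood at 352 and 430 TPM in PESFA cjESCs and at 214 and 420 TPM in Pre cells, against 57.8 to 118 TPM in all other libraries, TG+ and TG- alike. The difference between PESFA and DK20FA cjESCs was 2.20 ± 0.16 SE (limma adjusted p = 1.37e-12), and that between IWR1 at 96 h and Pre was -1.75 ± 0.16 (adjusted p = 4.32e-11). SLC25A4 is the heart and muscle form of the carrier, and the mesoderm and stroma markers summed to 3065 to 3478 TPM in PESFA cjESCs and 2428 to 4350 TPM in Pre cells. In BLSE at 96 h these markers summed to 4040 to 4916 TPM, with SLC25A4 at 82.4 and 95.6 TPM. Their part in the result was not tested.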

How the data were processed

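The deposited values were TPM, made by the authors: a fixed number of sorted cells per sample, poly(A) directional libraries with 12 cycles of PCR, single-end HiSeq reads, STAR alignment to the marmoset assembly cj1700, a mapping quality filter, and RSEM, with the table limited to genes shared with human. TPM keep no counts, so depth is unknown, and limma replaced the study's count-based test. Values were taken as log2(TPM + 1) and genes kept at 1.5 or more in at least 1 of 54 libraries. limma 3.58.1 in R 4.3.3 fitted 27 condition means with an intensity trend (two-sided, Benjamini-Hochberg over 11197 genes, threshold 0.05) and was tested on simulated data. p-values measure the spread between these duplicates. Every sample column of the table matched a sample title.

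Named were tissue isoforms, the 15 members with the widest and the 5 with the narrowest range, the highest of each complex, up to 3 calls each way per comparison and, of other pathway genes, up to 3 with a log2 difference over 1. Genes named beside these were chosen after their values were seen. Members and lists were chosen with earlier results of these data known. Alternatives were a pseudocount of 0.1, no filter, only the libraries compared, a replicate block, median-ratio scaling, leaving out each library and adding 13 subunits by gene ID. All 59 gene IDs matched the RefSeq table, whose assembly differs, so that no coordinates or sequences are given. Values of some single genes are not reported here.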

Additional observations from a re-analysis of the deposited data

Results flagged for a closer look

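The change from starting cells to sorted 96 h cells differed between the IWR1 and the SOX17 + BLSE route for 3 of the 59 subunits. This came from a direct limma test of the difference between the 2 changes. All 3 differences were negative, and 9.25% of all genes were called in that direction. The share of subunits was thus not above that of all genes. SDHA rose from 66.1 and 79.9 TPM to 254 and 212 TPM with SOX17 and from 83.9 and 93.3 TPM to 180.4 and 207 TPM with IWR1, a difference of -0.54 on the log2(TPM + 1) scale (SE 0.16, adjusted p = 0.0137). ATP5MC1, a gene of the c ring, went from 117 and 146 TPM to 219 and 252 TPM with SOX17 and from 178 and 191 TPM to 237 and 212 TPM with IWR1 (-0.56, SE 0.17, adjusted p = 0.0198). ATP5F1D, the delta subunit of the ATP synthase head, went from 242 and 236 TPM to 238 and 281 TPM with SOX17 and from 320.2 and 312 TPM to 245 and 208 TPM with IWR1 (-0.60, SE 0.21, adjusted p = 0.0469). Under median-ratio scaling SDHA alone passed. Over all alternatives, leaving out single libraries among them, the difference lay between -0.676 and -0.407 for SDHA. It lay between -0.718 and -0.408 for ATP5MC1 and between -0.716 and -0.476 for ATP5F1D. Line, medium, pre-treatment and SOX17 induction differ between the routes and cannot be told apart.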

How the results depend on the processing

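Of 134 calls of named genes, 57 passed under every alternative; in 1218 refits 955 kept the call, 263 lost it and 0 changed direction. Median-ratio scaling gave, for subunits lower, 3 in PESFA (14 as reported), 1 in BLSE at 12 h (3) and 3 at 96 h (12), 0 with BMS (1), 1 at day 6 (2) and 1 in the route difference (3); for subunits higher, 16 in SOX17 + BLSE at 96 h against cjESCs (28), 14 in IWR1 at 96 h (25) with 8 lower (5), 1 in SOX17 + LSE (3) and 1 at day 40 (0). In SOX17 + BLSE against BLSE it gave 4 higher and 2 lower at 48 h (15 and 1) and 11 higher and 13 lower at 96 h (25 and 5). With only the libraries compared, the counts were 0 higher and 0 lower in PESFA and in SOX17 + LSE, 0 lower in BLSE at 12 h, with BMS and at day 6, 4 lower in BLSE at 96 h, 5 higher and 0 lower at day 20, 0 higher at day 70 and 1 lower in the route difference. A pseudocount of 0.1 gave 0 lower with BMS and 1 lower at day 70, no filter gave 0 lower with BMS, and adding 13 subunits by gene ID gave 1 higher and 1 lower at day 40 and 1 lower at day 70. The higher share of all calls moved, under scaling, from 39.7 to 19.8% in Pre, from 47.7 to 67.1% with BMS, from 34.9 to 48.3% at day 6, from 28.4 to 48.0% at day 40 and from 24.4 to 36.0% at day 70. The causes were not tested.

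The members' median minus that of all genes moved in PESFA from -0.116 to -0.187 with no filter. In BLSE at 96 h it moved from 0.141 to 0.178 with a pseudocount of 0.1, 0.0779 with no filter and 0.176 with scaling, and in SOX17 + BLSE at 96 h against cjESCs from 0.153 to 0.108, 0.248 and 0.113. Against BLSE at 96 h it moved from 0.0362 to -0.0171, 0.157 and -0.0267, so that its sign was not settled. With no filter it was 0.203 for SOX17 at 48 h (0.145), 0.245 in IWR1 at 96 h (0.136), 0.206 at day 20 (0.27) and 0.0549 at day 40 (0.123), the last 0.164 with scaling.

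Leaving out 1 library at a time, which leaves a lone library assumed to vary like the others, gave 2 to 4 higher and 6 to 17 lower in PESFA, 0 to 1 each way in Pre, 0 to 1 higher and 1 to 2 lower in BLSE at 12 h, 4 to 7 higher and 8 to 10 lower at 96 h, and 20 to 24 higher and 4 to 6 lower in SOX17 + BLSE at 96 h. It gave 5 to 12 higher and 0 to 1 lower for SOX17 at 48 h, 21 to 22 and 2 to 5 at 96 h against BLSE, 0 to 2 and 1 to 3 in SOX17 + LSE, 21 to 25 and 3 to 5 in IWR1, 0 to 1 each way with BMS, 0 to 1 and 0 to 2 at day 6, 10 to 14 and 1 to 3 at day 20, 0 to 2 higher at day 40, 0 to 1 higher at day 70, and 0 to 1 and 0 to 2 in the route difference. The members' median minus that of all genes lay between -0.138 and -0.0754 in PESFA, -0.0754 and 0.089 in BLSE at 12 h, 0.0573 and 0.2 at 96 h, 0.139 and 0.177 in SOX17 + BLSE at 96 h, 0.0646 and 0.146 at 48 h, -0.00371 and 0.0231 against BLSE at 96 h, -0.0868 and -0.0177 in SOX17 + LSE, 0.0889 and 0.263 in IWR1, 0.206 and 0.318 at day 20, 0.1 and 0.185 at day 40, and -0.0686 and 0.0389 in the route difference.

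Same-numbered replicates did not deviate together (r between -0.0506 and 0.164 over 14 comparisons), so the numbers were not taken as pairs. With a replicate block, the counts were 1 higher in Pre, 1 higher and 3 lower with BMS, 1 higher at day 6, 1 higher and 1 lower at day 40, 1 lower at day 70 and 1 higher in the route difference, and the other counts stayed within 1.5 times. TPM carry no depth, so that how far depth limits a low member such as COX8C cannot be given.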
